A study of Mus musculus with 102 samples.

Results

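The 4 germline genes Dazl, Ddx4, Sycp3 and Stra8 were examined CpG by CpG in mouse embryonic stem cells (ESCs) with and without TET enzymes, and in the cells without TET after deletion of the de novo methyltransferase genes Dnmt3a and Dnmt3b. Members were all CpGs of the capture bisulfite table inside a window around each gene, in the mouse genome build mm9. The genes lie at chr17:50418719-50432924 (Dazl, minus strand), chr13:113388541-113442518 (Ddx4, minus strand), chr10:87922314-87935981 (Sycp3, plus strand) and chr6:34870163-34889342 (Stra8, plus strand), and the windows add 7076, 7482, 7314 and 5163 bases before the start and 3719, 3541, 4019 and 2658 bases after the end. The windows held 346 of the 2177608 CpGs in the table: 72 at Dazl, 81 at Ddx4, 64 at Sycp3 and 129 at Stra8. A CpG was placed in the promoter from 1000 bases upstream to 500 bases downstream of the main start of the gene, in the gene body from there to the annotated gene end, and otherwise in the flank, which gave 142, 174 and 30 CpGs. Positions below count from 0 at the first base of the main start, with negative numbers upstream.

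The capture part of the series had 24 samples, 3 for each of 8 groups. All came from C57BL6/J-derived ESCs homozygous for Dnmt3a and Dnmt3b alleles whose catalytic exons are flanked by loxP sites. The WT group was this parental line with its TET enzymes, not transduced. The TTKO groups were a clone of it in which all alleles of Tet1, Tet2 and Tet3 carry frameshift mutations, either not transduced (day 0) or collected 4, 8, 10, 13, 17 or 29 days after transduction with Cre protein, which removes the floxed exons. TTKO was 1 clone, so absence of TET and any other property of that clone cannot be told apart. No mock-treated capture group was among the samples, and transduced cells were moved to feeder-free plates after transduction, so removal of Dnmt3a and Dnmt3b, days in culture and the change of feeders cannot be told apart in the time course. The table gives 1 column of reads per group, with no replicates apart, so no value below has a standard deviation. Each test compares the reads of these columns, not the conditions. Fisher's exact test, the main one, measures counting error only. The Wald test given beside it adds an over-dispersion taken from the amplicon samples of the study.

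De novo methylation of CpGs is carried out by DNMT3A and DNMT3B, and existing patterns are copied after replication by DNMT1. TET enzymes oxidize methylated cytosine and so start its removal. Germline genes are a textbook class of genes with CpG-containing promoters that are methylated in somatic cells and that are demethylated and switched on in germ cells. Dazl encodes an RNA-binding protein of germ cells, Ddx4 (Vasa) an RNA helicase of germ granules, Sycp3 a structural protein of the synaptonemal complex, and Stra8 a retinoic-acid-induced gatekeeper of meiosis. Expression was not measured in these files, so whether the genes were silent in these cells was not tested, and methylation levels are all that is described.

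Members had a median of 173 to 268 reads per column, beside 152 to 269 for the whole table, and no CpG had fewer than 50 reads in any column. Promoters of the stem cell markers Pou5f1, Nanog, Zfp42, Esrrb and Sall4 averaged 1.2% to 3.1% in WT and 1.1% to 9.3% in TTKO at day 0. Of the fibroblast markers, only Thy1 and Twist2 had 5 or more promoter CpGs, at 4.8% and 5.4% in WT, 23.6% and 12.4% in TTKO at day 0, and 7.0% and 6.3% at day 29, and any part of feeder cells in the results was not tested. The deletion itself could not be read from this table, because it lists only CpGs covered in every column: the 257 CpGs within Dnmt3a kept a median day 29 to day 0 read ratio of 1.03 (0.756 to 1.63) and the 81 within Dnmt3b of 0.982 (0.857 to 1.24).

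The 250 bases upstream of each main start are shown because they hold the CpGs closest to the start on its upstream side. They are given 5′ to 3′ on the strand of the gene, from mm9, with the CpGs that the table measured in capitals. The Dazl sequence (chr17:50432925-50433174, minus strand) had 21 of its 23 CpGs measured, Ddx4 (chr13:113442519-113442768, minus strand) 11 of 31, Sycp3 (chr10:87922064-87922313, plus strand) 10 of 10 and Stra8 (chr6:34869913-34870162, plus strand) 7 of 7.
Dazl: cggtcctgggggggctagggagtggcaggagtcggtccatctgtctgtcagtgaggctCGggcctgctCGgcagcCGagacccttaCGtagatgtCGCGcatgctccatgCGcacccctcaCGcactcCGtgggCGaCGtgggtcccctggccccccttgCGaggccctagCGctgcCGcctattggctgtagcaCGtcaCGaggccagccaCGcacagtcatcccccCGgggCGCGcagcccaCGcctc
Ddx4: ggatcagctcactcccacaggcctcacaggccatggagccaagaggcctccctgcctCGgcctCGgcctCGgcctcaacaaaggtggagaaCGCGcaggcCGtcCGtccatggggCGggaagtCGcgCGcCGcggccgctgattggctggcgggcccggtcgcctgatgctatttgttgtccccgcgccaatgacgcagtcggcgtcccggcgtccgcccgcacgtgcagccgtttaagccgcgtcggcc
Sycp3: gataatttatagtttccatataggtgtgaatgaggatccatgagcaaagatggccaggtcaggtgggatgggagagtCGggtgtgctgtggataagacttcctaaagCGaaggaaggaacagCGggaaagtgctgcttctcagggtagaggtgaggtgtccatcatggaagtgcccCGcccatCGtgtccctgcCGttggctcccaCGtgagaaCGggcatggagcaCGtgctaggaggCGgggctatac
Stra8: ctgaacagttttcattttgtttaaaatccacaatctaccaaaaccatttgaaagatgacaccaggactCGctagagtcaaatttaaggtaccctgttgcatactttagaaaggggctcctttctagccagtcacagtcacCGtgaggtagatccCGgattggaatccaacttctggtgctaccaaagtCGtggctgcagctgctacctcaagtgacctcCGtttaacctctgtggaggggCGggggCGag
The Ddx4 sequence ends in a CpG-dense stretch without a single measured CpG, so no value below covers Ddx4 between -120 and +283. Over 1000 bases centred on the start, GC content was 62.4% at Dazl, 64.2% at Ddx4, 55.6% at Sycp3 and 47.1% at Stra8, and the number of CpGs was 72, 77, 46 and 14, beside medians of 58.7% and 60 CpGs over 14698 promoters of protein-coding genes with at least 5 measured CpGs. Stra8 was therefore CpG-poor at this start, with fewer CpGs than all but 4.01% of promoters.

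Annotations placed the starts close to each other for all of the genes but Stra8. The main starts come from GENCODE M1; the start of the RefSeq promoter, located in mm9 by exact sequence match, lay at -21 for Dazl, 0 for Ddx4 and +18 for Sycp3, but at +785 for Stra8, close to the other annotated Stra8 starts at +797 and +851. For the Stra8 promoter, the means in WT and at days 0 and 29, the calls by Fisher's exact test and the median rates are therefore given for both starts, and other values for the main start. Dazl also has a second annotated start at +707, inside what is called its gene body here. All 64 Sycp3 CpGs lay within Chpt1, a phospholipid-synthesis gene on the opposite strand. The measured promoter, gene body and flank of Sycp3 are therefore also Chpt1 sequence. By annotation, 7 members lay in coding exons, 36 in untranslated exons, 207 in introns of the 4 genes and 96 outside the 4 genes, of which 17 were in Chpt1 and 79 in no annotated gene.

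In WT cells the 4 promoters were methylated well above a typical promoter, but none was methylated throughout. Mean promoter methylation was 50.6% at Dazl (52 CpGs, 22.8% to 84.8%), 36.4% at Sycp3 (41 CpGs, 4.0% to 79.6%), 26.5% at Ddx4 (28 CpGs, 2.4% to 74.5%) and 24.5% at Stra8 (21 CpGs, 2.7% to 57.7%), and the median promoter mean over all genes was 2.5%. These values were higher than those of 95.1%, 92.8%, 90.7% and 90.2% of promoters. The ranges over CpGs of the 4 promoters overlapped widely, and pooled over reads the promoter levels were 50.7% (95% Wilson interval 49.6% to 51.7%), 36.1% (35.2% to 37.2%), 31.6% (30.3% to 32.9%) and 22.5% (21.5% to 23.5%). Around the RefSeq start, the Stra8 promoter held 42 CpGs with a WT mean of 36.8% (2.7% to 69.0%).

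The promoter mean was above the gene body mean at Dazl and Sycp3 and below it at Ddx4 and Stra8. At Dazl the promoter had 50.6% and the CpGs called gene body 8.8% (20 CpGs, 0.0% to 36.2%). These 20 reach only to +4480, and 15 of them lie in the promoter window of the other annotated start at +707, so the contrast is largely between the surroundings of both starts. By comparison, Ddx4 had 26.5% in the promoter and 65.0% in the gene body (38 CpGs, 39.8% to 87.5%). Sycp3 had 36.4% against 21.2% (20 CpGs, 6.2% to 46.5%), and Stra8 24.5% against 41.2% (96 CpGs, 7.4% to 89.3%). The Sycp3 gene body CpGs all lie from +505 to +1107, next to the promoter, and 61 of the 96 at Stra8 lie within 2 kb of the main start and so around the RefSeq start, whose promoter mean of 36.8% is closer to that of the gene body. The flank CpGs were the most methylated of Ddx4, at 81.0% over 15 CpGs beyond its 3′ end, of Sycp3, at 73.1% over 3 CpGs, and of Stra8, at 54.5% over 12 CpGs. Dazl had no flank CpG in the table.

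Within the promoters, levels varied with position. The Ddx4 promoter fell from a mean of 61.2% over the 4 CpGs upstream of -250 to 10.1% over the 11 CpGs between -193 and -120, and downstream it ran, unevenly, from 2.4% at +283 to 74.5% at +491. Sycp3 was uneven upstream of the start, with 66.2% at -128, 7.9% at -56, 4.0% at -44, 11.6% at -23 and 41.1% at -1. Downstream of the start it held intermediate values between 14.0% and 58.1%. Stra8 lay between 2.7% and 4.0% at its 4 CpGs from -62 to -4. Dazl had no such trough near its main start, where the 24 CpGs from 0 to +250 averaged 48.9%. Its trough came later: the 13 CpGs from +860 to +1068, just downstream of the second start, lay between 0.0% and 6.8%. The plot of methylation by distance from the start shows these profiles in 3 of the columns.

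**Figure D1:**
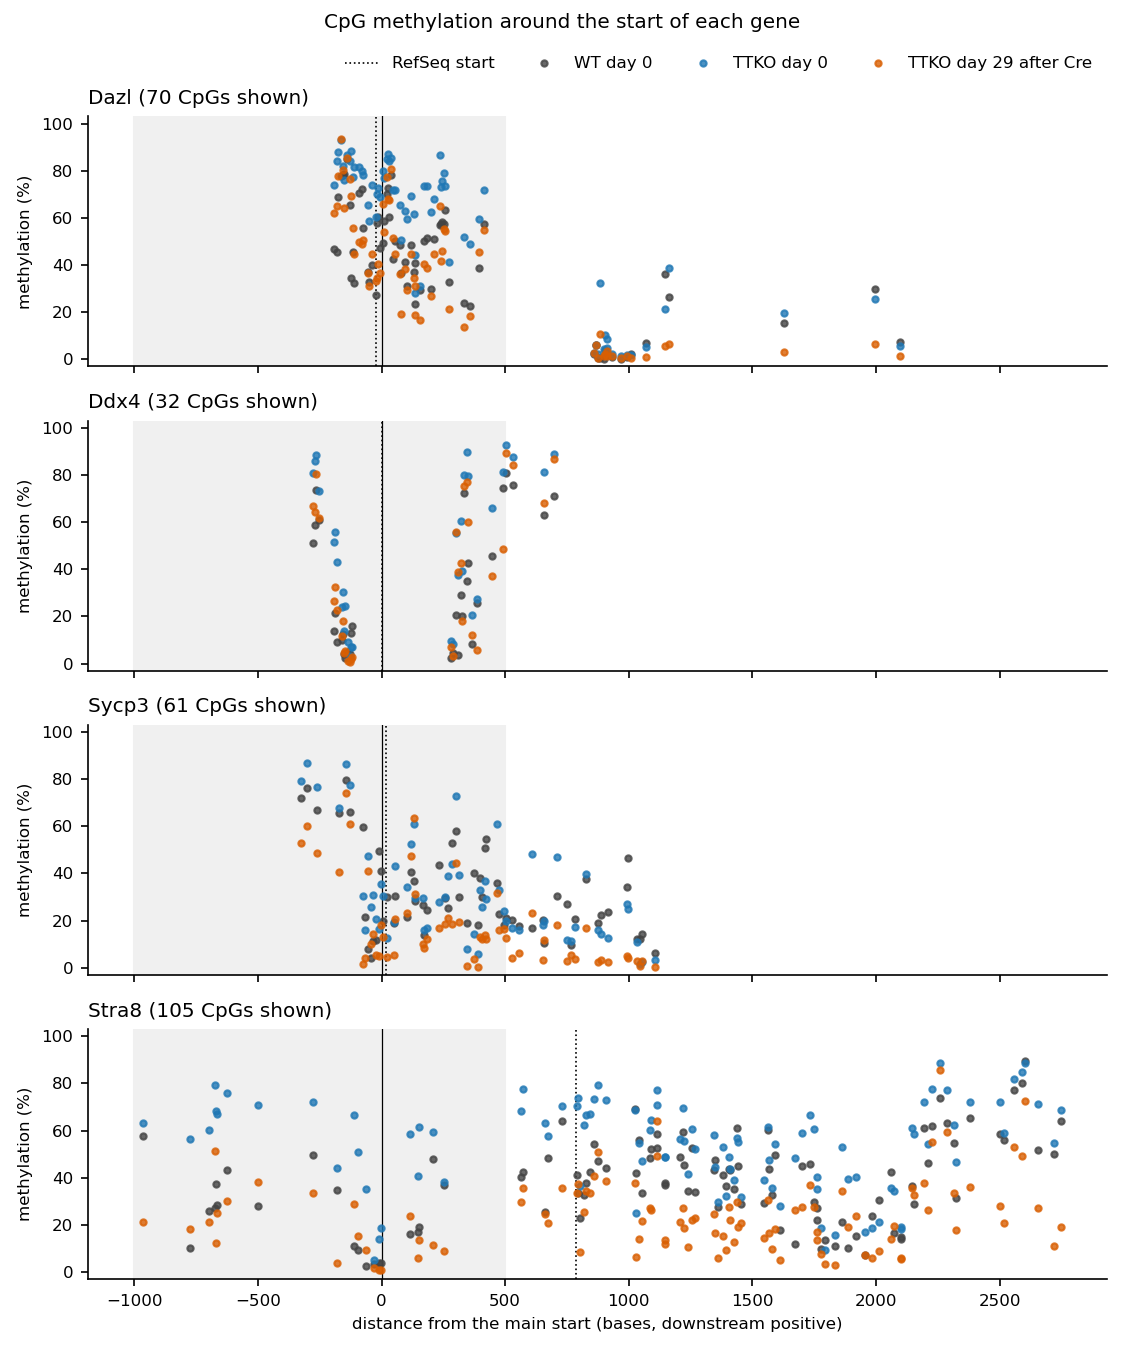
Methylation level (%) of each CpG against distance from the main start (bases) at the 4 loci, for WT day 0 (grey), TTKO day 0 (blue) and TTKO day 29 after Cre (orange); grey shading marks the promoter, the solid line the main start and the dotted line the RefSeq start, and CpGs further than 3 kb downstream are not drawn. WT troughs lie near the starts of Ddx4 and Stra8 and from +860 to +1068 at Dazl, and blue points lie above grey ones at most promoter CpGs of Dazl, Ddx4 and Stra8.

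The comparison of TTKO with WT at day 0 asks what the absence of TET enzymes does to these loci. The promoter means of Stra8, Dazl and Ddx4 were higher without TET and that of Sycp3 was nearly the same: Stra8 went from 24.5% to 52.7%, Dazl from 50.6% to 70.7%, Ddx4 from 26.5% to 44.8% and Sycp3 from 36.4% to 38.2%. Around its RefSeq start, the Stra8 promoter went from 36.8% to 55.6%. Gene body means went from 41.2% to 53.2% at Stra8, from 65.0% to 75.0% at Ddx4, from 8.8% to 11.0% at Dazl and from 21.2% to 18.9% at Sycp3. Those of Dazl and Sycp3 depend on the choice of CpGs: the Dazl difference of 2.2 points became -2.7 over the 3 CpGs beyond 2 kb, and the Sycp3 difference of -2.2 became -6.7 over the 14 CpGs with at least 100 reads in every column. By Fisher's exact test with Benjamini-Hochberg adjustment over the whole table, 191 of the 346 members (55.2%) were higher in TTKO at an adjusted p under 0.05, beside 44.7% of all CpGs, and 20 (5.78%) were lower, beside 0.907%. A Wald test that adds over-dispersion, at the value the study set for amplicon replicates, called 120 higher (34.7%), close to the 32.8% of all CpGs. It called 8 lower (2.31%), beside 0.198%. The study used no such term for its capture data. The median WT level was 41.8% for the members and 6.7% for all CpGs. All of these shares are to be read with this difference in starting level.

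Higher calls were 93 of 142 promoter CpGs (65.5%) and 83 of 174 gene body CpGs (47.7%), the second share close to that of the whole table. By promoter they were 18 of 21 at Stra8 (30 of 42 around its RefSeq start), 41 of 52 at Dazl, 21 of 28 at Ddx4 and 13 of 41 at Sycp3. By gene body they were 52 of 96 at Stra8 (54.2%), 26 of 38 at Ddx4 (68.4%), 4 of 20 at Dazl (20%) and 1 of 20 at Sycp3 (5%). The Wald test called 69 of 142 promoter CpGs (48.6%), as 16 at Stra8, 33 at Dazl, 15 at Ddx4 and 5 at Sycp3, and 46 of 174 gene body CpGs (26.4%), below the 32.8% of the table, as 32 at Stra8, 12 at Ddx4, 1 at Dazl and 1 at Sycp3. By Fisher's exact test the shares were 78.8% in the promoter of Dazl, 75% in that of Ddx4 and 31.7% in that of Sycp3; for Stra8 the share was 85.7% at the main start and 71.4% at the RefSeq start, so its place above or below Dazl and Ddx4 depends on the start used. Whether the loci differ from each other in this was not tested, since CpGs of the same library are not replicates.

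At Stra8, the gain near the main start was uneven. The CpG at -110 (chr6:34870053), with the largest change of the promoter, went from 11.1% of 425 reads in WT to 66.5% of 472 reads in TTKO (adjusted p = 1.47e-67, Fisher's exact test). In the trough, the CpG at -62 went from 2.7% to 35.3%, and those at -10 and -4 from 4.0% to 14.2% and from 3.9% to 18.8%. At -31 the levels were 3.5% and 5.0%, with an adjusted p of 0.551 by the same Fisher's exact test. CpGs within this stretch thus gained very different amounts. The gain also covered the RefSeq start: the CpG at +794 (chr6:34870957), with the largest gene body change, went from 33.5% to 73.7% (adjusted p = 5.06e-32, Fisher's exact test). Beyond the 3′ end, the CpG at +21605 had the largest difference of all members, from 8.6% to 75.6%.

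At Dazl, the gain was spread over most of the measured part of the promoter, from -192 to +413, with 43 of 52 CpGs at least 10 points higher. The largest was at -122 (chr17:50433045), from 34.4% of 131 reads to 88.3% of 128 reads (adjusted p = 7.21e-19, Fisher's exact test). The CpG nearest the start, at -6, went from 47.1% to 68.8%. Some CpGs differed little, such as that at -140, high in WT, with 84.8% and 86.5% (adjusted p = 0.992, Fisher's exact test). Another was that at +157, with 29.4% and 31.0%. In the gene body trough, the CpG at +882 went from 0.5% of 205 reads to 32.5% of 160 reads (adjusted p = 2.71e-19, Fisher's exact test), while its neighbours at +876 and +901 went from 0.6% to 2.2% and from 0.0% to 4.2%.

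At Ddx4, CpGs on both sides of the trough were higher and those closest to the start were low in both columns. The 11 CpGs from -193 to -120 averaged 10.1% in WT and 24.5% in TTKO, with 51.7%, 55.9% and 43.1% at -193, -187 and -181 in TTKO. At -127 the levels were 4.2% and 3.3%, and at -120, nearest the start of those measured, 16.0% and 7.2%, the only CpG of the locus called lower (adjusted p = 0.0471, Fisher's exact test; 0.205 by the Wald test). Downstream, the CpG at +346 (chr13:113442171) went from 35.0% of 197 reads to 89.9% of 278 reads (adjusted p = 4.42e-36, Fisher's exact test). In the gene body the largest change was from 55.3% to 80.9% at +6778, inside an intron, and the flank went from 81.0% to 86.0% on average with 6 of 15 CpGs (40%) called higher, a share below that of the table, and none by the Wald test.

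At Sycp3, gains and losses alternated over short distances. The promoter had 13 CpGs higher and 8 lower in TTKO, and the gene body 1 higher and 5 lower, so the locus held 13 of the 20 members called lower and all 8 of those called lower by the Wald test. The CpG at -56 (chr10:87922258) went from 7.9% of 239 reads to 47.4% of 253 reads (adjusted p = 7.35e-23, Fisher's exact test), and those at -44 and -36 from 4.0% to 25.9% and from 11.5% to 30.9%. On either side of this stretch, the CpG at -74 went from 59.9% to 30.4% (adjusted p = 1.06e-10) and that at -11 from 49.4% to 16.5% (adjusted p = 3.81e-15), both by Fisher's exact test. Further downstream, +22, +375, +421 and +995 were lower, with 29.9% and 12.8%, 40.1% and 14.5%, 54.7% and 29.1%, and 46.5% and 25.0% in WT and TTKO, while +131 and +466 were higher, with 36.7% and 61.0%, and 35.9% and 61.0%. The promoter mean, which differed by 1.8 points, therefore hides CpG differences from -32.9 to 39.5 points. Stra8 had 4 CpGs called lower and Dazl 2, all in the gene body and none of them by the Wald test.

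**Figure D2:**
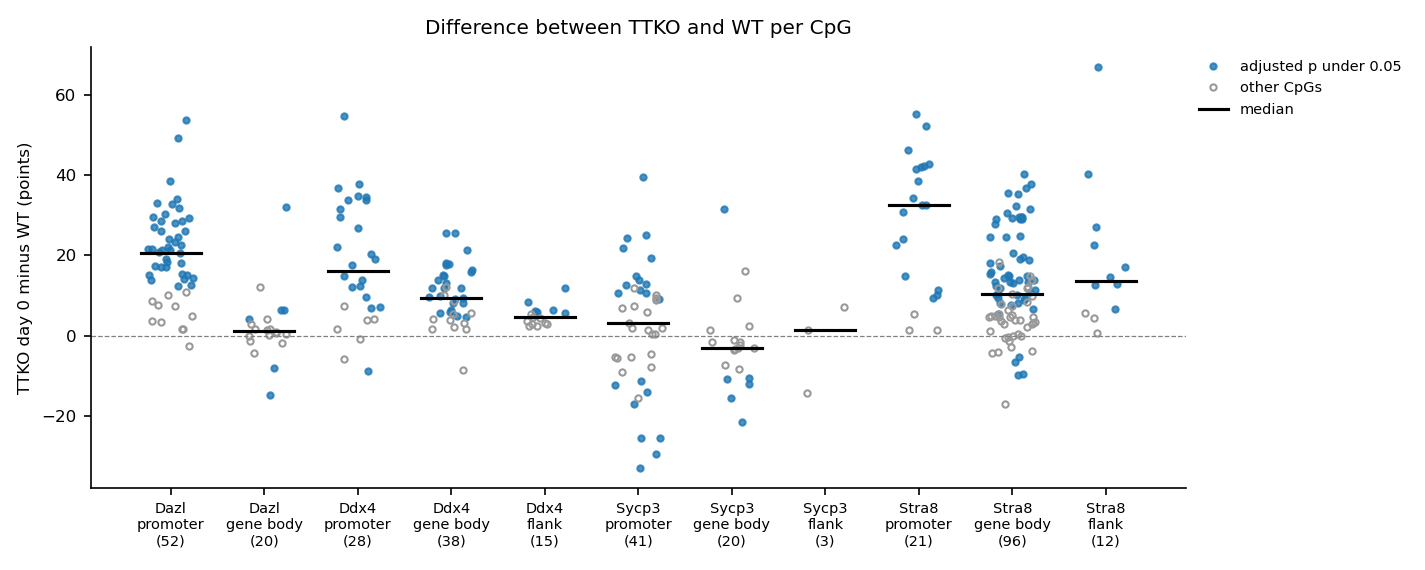
Difference in methylation between TTKO and WT at day 0 (percentage points) for each CpG, by locus and class, with the number of CpGs in parentheses; filled points have an adjusted p under 0.05 by Fisher's exact test and black bars are medians. Promoter points of Dazl, Ddx4 and Stra8 lie mostly above 0, and those of Sycp3 spread from -32.9 to 39.5.

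After Cre, mean methylation was lower at day 29 than at day 0 in the promoter and the gene body of all 4 loci. The Stra8 promoter fell from 52.7% at day 0 to 17.9% at day 29, below its WT level of 24.5%. Sycp3 fell from 38.2% to 22.9%, also below WT, and Dazl from 70.7% to 48.6%, close to its WT level of 50.6%. Ddx4 fell from 44.8% to 31.5% and stayed above its WT level of 26.5%. As a share of day 0, the promoters kept 33.9% (Stra8), 59.8% (Sycp3), 68.7% (Dazl) and 70.4% (Ddx4), and the Stra8 promoter at the RefSeq start kept 41.4%, falling from 55.6% to 23.1%.

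By Fisher's exact test with adjustment over the whole table, 293 of 346 members (84.7%) were lower at day 29 than at day 0, beside 59.3% of all CpGs. None was called higher, beside 0.171%, also none at an unadjusted p under 0.05 and none by the Wald test (9.18e-05% of all CpGs), which called 260 lower (75.1%), beside 51% of the table. Lower calls were 113 of 142 promoter CpGs (79.6%), 153 of 174 gene body CpGs (87.9%) and 27 of 30 flank CpGs. At Stra8 they were 127 of 129, including all 21 in the promoter and all 42 around its RefSeq start. The table holds many CpGs near 0 at day 0, with a median of 23.7% beside 60.0% for the members, and the shares of lower calls are to be read with this difference in starting level.

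The intermediate days show when the decline began. At day 4 the promoter means were 67.5% at Dazl, 44.7% at Ddx4, 40.3% at Sycp3 and 50.9% at Stra8, and 2 members were called lower than at day 0, both at Stra8, beside 1.55% of all CpGs. They lay at +151 (61.3% to 48.6%, adjusted p = 0.0409) and at +7171 (62.3% to 45.9%, adjusted p = 0.0136) by Fisher's exact test, and the Wald test called neither, beside 0.000321% of all CpGs. None was called higher at day 4 by Fisher's exact test, beside 0.137%, though 20 were higher and 23 lower at an unadjusted p under 0.05; the Wald test also called none higher. The Stra8 promoter went on through 42.9%, 37.9%, 35.8% and 27.1% at days 8, 10, 13 and 17, and Dazl through 62.0%, 60.0%, 57.2% and 53.3%. Over the same days Ddx4 had 42.2%, 39.5%, 36.7% and 36.0%, and Sycp3 35.0%, 33.8%, 30.7% and 27.7%. Each of these 4 series of unweighted means went down at every step from day 4 on. Pooled over reads, the Ddx4 promoter did not, with 51.0% at day 4 and 51.9% at day 8.

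Gene bodies changed over the same period by amounts that did not follow their promoters. The Ddx4 gene body went from 75.0% to 46.1%, keeping 61.4%, and the Stra8 gene body from 53.2% to 24.9%, keeping 46.9%. The low gene bodies of Dazl and Sycp3 kept the least, going from 11.0% to 3.1% (27.6%) and from 18.9% to 6.6% (34.9%). The flank of Ddx4 kept the most of any class, going from 86.0% to 74.6% (86.8%).

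**Figure D3:**
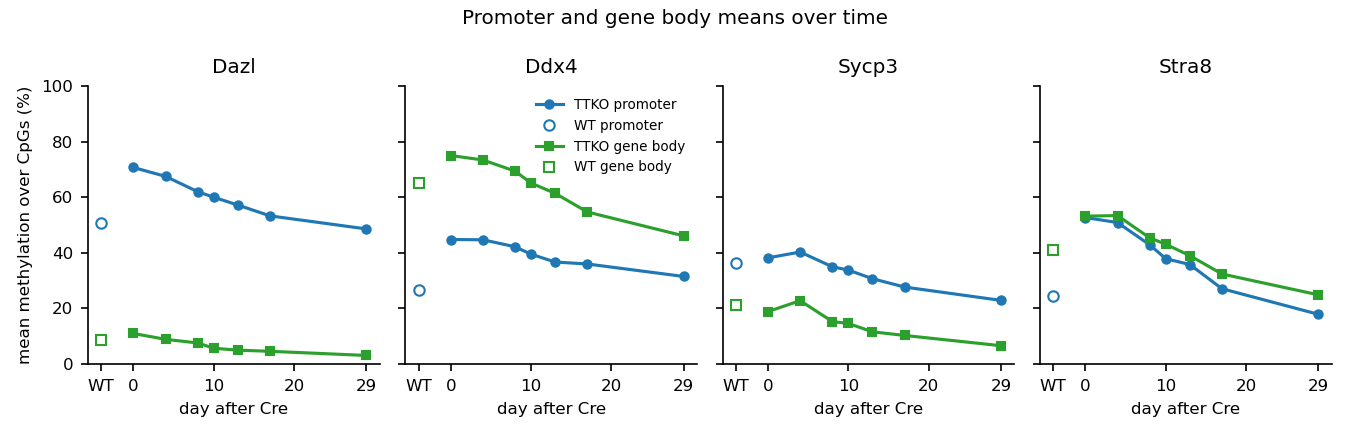
Mean methylation (%) over promoter CpGs (blue circles) and gene body CpGs (green squares) of each locus against days after Cre in TTKO cells, with the WT mean as an open symbol at the left; each point is 1 column of the table, without separate replicates, so there are no error bars. The Stra8 promoter falls from 52.7% to 17.9% and the Dazl promoter from 70.7% to 48.6%.

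Some CpGs kept nearly all of their methylation. Of the 290 members at 20% or more at day 0, 23 were still at 90% or more of that level at day 29, beside 3.9% of 1121594 such CpGs in the table, and the table's median CpG kept 50.1%. They were 6 of 52 in the Dazl promoter, 4 of 21 in the Ddx4 promoter, 3 of 38 in the Ddx4 gene body, 6 of 15 in the Ddx4 flank, 3 of 32 in the Sycp3 promoter and 1 of 88 in the Stra8 gene body. None of 18 in the Stra8 promoter did so, where the highest kept 64.8%.

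Some of these CpGs lay close together and others beside CpGs that lost much. At Dazl, 4 of the 6 were at -164, -155, -140 and -129, in the outer part of the printed sequence, with 92.9%, 82.0%, 86.5% and 84.0% at day 0 and 93.6%, 80.5%, 85.5% and 76.6% at day 29. At Ddx4, the CpGs at +303 and +311 had 55.3% and 37.4% at day 0 and 55.6% and 39.0% at day 29. The CpGs that follow were mixed, from 94.5% kept at +334 to 20.8% at +386 and 59.6% at +491. Its 4 gene body CpGs from +504 to +699 averaged 87.6% and 82.1%, or 93.8% kept, beside 58.8% for the 26 CpGs from +5841 to +16882. At Sycp3, the 3 neighbours at +120, +131 and +137, all in a coding exon, had 52.5%, 61.0% and 29.8% at day 0 and 47.4%, 63.6% and 31.4% at day 29, inside a promoter whose median CpG kept 53.2%. At Stra8 the single case was +2259 (chr6:34872422), with 88.8% of 838 reads and 85.8% of 840 reads.

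Other CpGs lost nearly everything. At Sycp3, the CpG at -74 went from 30.4% to 1.7% (adjusted p = 4.91e-19, Fisher's exact test) and the nearby CpG at -56 went from 47.4% to 41.1% (adjusted p = 0.289). At Stra8, the CpG at -4 went from 18.8% to 0.8%, and that at -182 from 44.2% to 4.0%. The largest fall in a promoter was at -668 of Stra8, from 68.2% to 12.3% (adjusted p = 1.79e-56, Fisher's exact test). In the Ddx4 gene body it was at +9646 (chr13:113432871), from 69.8% of 1128 reads to 16.2% of 994 reads, and in the Dazl promoter at +335, from 52.0% to 13.5%. Members next to each other in the same columns thus differed widely in what they kept.

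**Figure D4:**
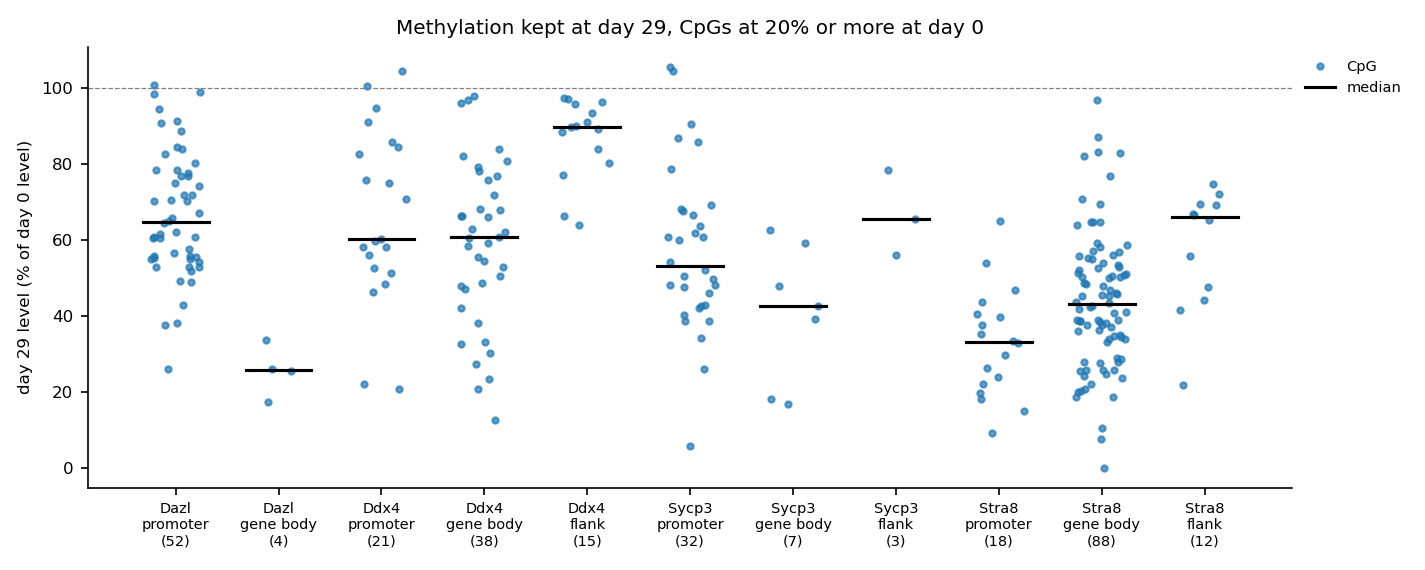
Day 29 methylation as a percentage of the day 0 level in TTKO cells, for member CpGs at 20% or more at day 0, by locus and class with the number of CpGs in parentheses; black bars are medians and the dashed line marks 100%. Medians are 64.6% in the Dazl promoter, 33.0% in the Stra8 promoter and 89.6% in the Ddx4 flank.

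A model of turnover was fitted to the 7 TTKO columns of each CpG, giving a methylation rate and a demethylation rate per day, where removal of Dnmt3a and Dnmt3b stops the first and the second drives the decline. Both rates could be identified for 333 of the 346 members and for 79.1% of the table. The median demethylation rate was 0.0206 per day in the Dazl promoter, 0.0274 in that of Ddx4, 0.0332 in that of Sycp3 and 0.0588 in that of Stra8 (0.0442 around its RefSeq start), beside 0.0486 over the identified CpGs of the table. Within the Dazl promoter single CpGs ran from -8.90 to -3.81 on the log2 scale of this rate, and in that of Stra8 from -5.60 to -2.03, so the promoters overlapped. Gene bodies had medians of 0.0861 at Dazl, 0.0227 at Ddx4, 0.0783 at Sycp3 and 0.0421 at Stra8, and the Ddx4 flank the lowest of any class, 0.00543. These medians are not equally precise: 212 members were low in noise, with both 95% credible ranges under 2 on the log2 scale, but only 22 of the 50 identified CpGs of the Dazl promoter, 12 of 26 at Ddx4 and 18 of 41 at Sycp3, beside 20 of 21 at Stra8. In gene bodies they were 2 of the 15 identified CpGs at Dazl and 3 of 19 at Sycp3, beside 34 of 37 at Ddx4 and 81 of 96 at Stra8. These rates restate the time course and are no independent support for it.

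The methylation rate ordered the promoters differently. Its median was 0.0783 per day at Stra8 around either start, 0.0442 at Dazl, 0.0238 at Ddx4 and 0.017 at Sycp3, beside 0.0486 for the table. The Stra8 promoter thus had the highest of both rates among the 4 promoters, and Dazl the lowest demethylation rate. For the WT to TTKO comparison, the median log2 odds ratio of methylation in TTKO over WT was 2.10 at the Stra8 promoter, 1.51 at Ddx4, 1.31 at Dazl and 0.23 at Sycp3, beside 0.95 for the table; around its RefSeq start Stra8 came below Ddx4 and Dazl and stayed above the table. In gene bodies it was 0.69, 0.73, 0.54 and -0.31 in the same order.

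Letters of 3 motifs were searched on both strands of the printed sequences: CACGTG (an E-box), GCGGGA (an E2F-type site) and AGGTCA (a nuclear receptor site). CACGTG occurred in Sycp3 at -46 and -25 and in Ddx4 at -29, and 6.46% of 22359 promoter stretches of the same length hold it. The CpGs inside the Sycp3 copies were the pair at -44, with 4.0% in WT, 25.9% in TTKO and 10.0% at day 29, and at -23, with 11.6%, 20.8% and 5.4%; the Ddx4 copy had no measured CpG. GCGGGA occurred in Sycp3 at -129 (66.2%, 77.7% and 61.0%) and in Ddx4 at -136 (5.0%, 9.0% and 1.1%), and 20.7% of promoters hold it. AGGTCA, which has no CpG, occurred in Sycp3 at -195 and on the antisense strand of Stra8 at -38, with 12.5% of promoters holding it. The Dazl sequence held none of these letters.

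Other genes of the germline and of meiosis were listed to place the 4 loci. Of 24 further germline genes, 20 had at least 5 promoter CpGs; Asz1, Tuba3b, Nanos2 and Nanos3 had none. Of these 20 promoters, 16 were at least 10 points higher in TTKO than in WT, beside 19% of all 14698 promoters, and 19 were at least 10 points lower at day 29 than at day 0, beside 22.2%. Of 17 meiosis genes, 8 and 10 passed these limits, which are limits of size and not tests. Median differences were 16.1 points up and -17.6 points down for the germline list, 9.4 and -12.8 for the meiosis list, and 1.8 and -2.5 for all promoters. Among the 4 loci, 3 were at least 10 points higher in TTKO, all but Sycp3, and all 4 at least 10 points lower at day 29. The promoters of the lists started from a higher level than most, with medians of 34.4% and 21.7% in WT beside 2.5%.

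The listed promoters covered a wide range of methylation. In WT the highest germline means were Dpep3 (74.2%), a testis dipeptidase, Tex101 (72.7%), a germ cell surface protein, and Tuba3a (67.3%), a testis tubulin. The lowest were Tex14 (2.4%), an intercellular bridge protein, Dnd1 (8.9%), an RNA-binding protein of germ cells, and Tdrkh (14.6%), of the piRNA pathway. The largest differences of TTKO over WT were Dnd1, from 8.9% to 38.9%, Tex11, a meiotic recombination protein, from 18.0% to 47.5%, and Mael, of the piRNA pathway, from 37.0% to 64.5%; the Stra8 difference was 28.2 points at the main start and 18.9 at the RefSeq start. The promoters of the other listed genes of the synaptonemal complex went from 38.0% to 53.8% (Sycp1), 36.5% to 46.0% (Sycp2), 24.8% to 42.9% (Syce1), 2.3% to 8.4% (Syce2), 59.2% to 74.2% (Syce3) and 46.1% to 67.5% (Tex12).

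**Figure D5:**
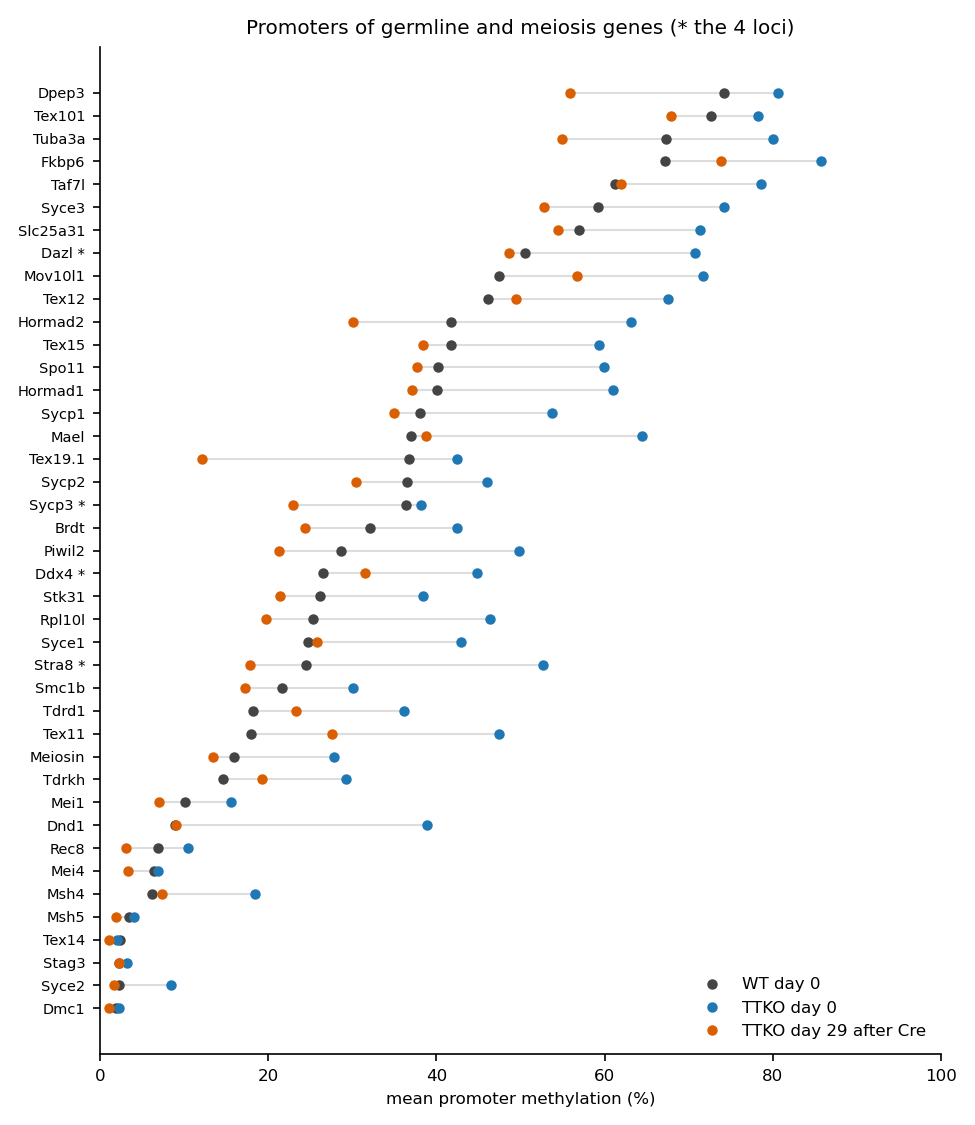
Mean promoter methylation (%) of the 4 loci (asterisks) and of the 37 other germline and meiosis genes with at least 5 promoter CpGs, ordered by WT level, in WT day 0 (grey), TTKO day 0 (blue) and TTKO day 29 after Cre (orange). The grey points run from 1.9% (Dmc1) to 74.2% (Dpep3), and blue lies right of grey by at least 10 points in 24 of the 37.

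Promoters with the most similar course over the 8 columns, by Euclidean distance between mean levels, were mostly of genes outside these lists. The closest to Dazl was Lbp at a distance of 4.0 percentage points, and Tex12, of the synaptonemal complex, was the fourth at 6.9. The closest to Ddx4 was Rasgef1a (5.0), to Sycp3 Adad2 (5.0), and to Stra8 Rrp9 (1.9), whose promoter had 23.4% in WT, 53.1% at day 0 and 17.5% at day 29. The other neighbours, in order, were Odz2, Lrrc66 and Eddm3b for Dazl, Pramel1, Dnaja4, Dock3 and Plscr4 for Ddx4, Shisa4, Mrs2, Cnnm1 and Pex5l for Sycp3, and Slc25a45, 1700063H04Rik, Selenbp1 and Rlbp1 for Stra8. Similar levels over these columns are a description of likeness among 14698 promoters.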

How the data were processed

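Capture (SureSelect) bisulfite sequencing of 24 samples in 8 groups was used. According to the labels and the study's methods, the authors aligned reads to mm9 with Rbowtie within QuasR and counted methylated and total reads per CpG with a minimum coverage of 50, which the methods state for all time points and replicates. The deposited table has 1 column per group, and how it was made from the 3 replicates is not given in the sources used here. All 3793647 percentages from 5% to 95% at under 200 reads equal a whole number of methylated reads over the coverage (within 0.05 points), and the lowest coverage in a column is 50. This is what 1 set of reads per column gives; whether that set joins 3 libraries or fewer cannot be told. The deposited values used here are, per CpG and group, the count of covering reads and the percent methylation, which the authors rounded to 1 decimal. The authors' own rate and TET activity columns in the same table hold their fitted results and were not used, and the 78 amplicon samples were not used because no amplicon CpG lies in the 4 windows. Unmapped columns of per-sample values numbered 0.

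Methylated reads were recovered as the nearest whole number from percent and coverage, and class means are unweighted over CpGs. Columns were compared by the two-sided Fisher's exact test on all 2177608 CpGs with Benjamini-Hochberg adjustment, threshold 0.05. The test was written for this purpose and checked on sampled CpGs against scipy 1.17.1. A Wald test with the over-dispersion of 0.0055 that the study used for amplicon replicates was an alternative. For the capture data the study judged such a term unnecessary and used a binomial error model. Odds ratios had 0.5 added to each count. Rates were fitted on a grid of 80 by 80 rates up to 2.0 per day, with an assumed loss of DNMT3 activity at 0.5 per day, 8% of day 0 mixed in and a conversion error of 0.0025. They count as identified where the probability at each border was under 0.08. Intervals are 95% Wilson intervals. They cover counting error only, since reads are not known to be independent molecules and replicate spread is unknown. On simulated data of 20000 CpGs each, changes of 2 on the log2 odds scale were recovered in 88.5% (WT to TTKO), 89% (day 29) and 78.5% (day 4) of cases. Changes of 1 were recovered in 49.5%, 44.5% and 37%. Each simulation changed only 200 CpGs, of intermediate level, and held counting error only. Far larger shares were called between WT and TTKO and at day 29, so these recovery shares do not carry over to those tests.

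Starts came from GENCODE M1, taking the start shared by the most protein-coding transcripts and, in ties, the most upstream. CpGs were named as the nearest to each start and those with the largest and smallest change per class, and others were chosen after their values were seen. Germline promoters were named as the 3 highest, 3 lowest and 3 largest rises; those of the synaptonemal complex were chosen after seeing values. The members and lists were chosen with earlier results of these data known. Alternatives tried were the Wald test, a least difference of 10 points, at least 100 reads, reads as weights, other promoter and gene body windows, and other rate settings.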

Additional observations from a re-analysis of the deposited data

How the results depend on the processing

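Of 158 checks of the reported counts, means and rates under other settings, 130 stayed within the limit used to judge them, 27 moved and 1 reversed. The limit was a ratio for counts, and counting or fitting error for means and rates. Some of the 130 could not change, because the setting kept the same CpGs. Promoter windows from 500 or 2000 bases upstream, for instance, held the same 52, 28 and 41 CpGs at Dazl, Ddx4 and Sycp3. With over-dispersion (Wald test), members higher in TTKO than in WT went from 191 to 120 and lower from 20 to 8, and over the whole table lower went to 4311, day 29 higher to 2, day 4 higher to 0 and day 4 lower to 7, with 0 members lower at day 4. Requiring a difference of 10 points left 8581 lower in TTKO, 29 higher at day 29 and 1968 higher at day 4 over the whole table. The difference of TTKO from WT became 16.5 points at the Dazl promoter and 21.0 at that of Stra8 with all protein-coding starts. At Stra8 it became 18.9 with the RefSeq start and 25.2 with 500 bases upstream. These 3 windows at Stra8 overlap but hold different sets of 53, 42 and 14 CpGs. The difference of day 29 from day 0 became -18.7 points at Dazl with all starts, and -32.6 at Stra8 with the RefSeq start and -31.4 with 500 bases upstream. At least 100 reads gave 21.7 points (TTKO from WT) at the Ddx4 promoter, 13.1 at the Stra8 gene body, and -6.7 and, at day 29, -10.5 at the Sycp3 gene body. Weighting by reads gave -15.9 points at day 29 at the Ddx4 promoter, and 13.4 and, at day 29, -26.5 at the Stra8 gene body. Starting the gene body further downstream, beyond 2 kb, gave 9.7 points at Stra8 (TTKO from WT) and -31.8 at Ddx4 at day 29, reversed Dazl to -2.7 points (TTKO from WT, 3 CpGs), and left no CpG at Sycp3. Without residual undeleted alleles the median log2 demethylation rate of the Stra8 promoter became -4.36. The RefSeq start, all starts and the later gene body were chosen after seeing the data.

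No paired analysis was possible because the capture table has 1 column per group and carries no replicate numbers; the planned replicate block and the fits without each replicate were for amplicon CpGs, none of which lies in the windows, and were not run. Spread between replicates is therefore unknown for every value here, and a CpG at 60 reads cannot resolve differences of a few points.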
